A study of Saccharomyces cerevisiae with 24 samples.

Results

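The inositol-choline response of a Saccharomyces cerevisiae snf1 mutant was compared between carbon (C) and nitrogen (N) limitation. Its 12 arrays were chosen by array title from the 24 arrays of the series, and 5449 genes were measured on them. They fall into 4 groups of 3: snf1 under C limitation at low and at high inositol-choline, and snf1 under N limitation at low and at high inositol-choline. The other 12 arrays hold the strain named Reference under the same 4 conditions. All cultures were chemostats on minimal medium sampled at steady state, and total RNA was hybridised to Affymetrix yeast arrays. The labels give neither the amounts behind low and high, nor the dilution rate, nor how the snf1 strain was made. Nor do they tie replicates to separate cultures, and the p-values therefore reflect the spread of these samples, which may be technical only. For 6 of the snf1 arrays, those titled snf1_N or Nsnf1_N, the description and source name give C limitation instead. They were grouped by title. A leading N in a title goes with the low inositol-choline groups, not with N limitation.

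SNF1, the kinase gene for which the mutant is named, lay at 4.96 to 4.99 (log2 signal) in the C-limited low group and at 4.97 to 4.99 in the N-limited high group, and on all 12 arrays below the background level set by Schizosaccharomyces pombe probe sets. On the Reference arrays under C limitation at the low level it was at 7.99 to 8.09. DAL5, the allantoate permease gene that a rich nitrogen supply represses, checked the conflicting labels. It was at 6.96 to 7.13 and 6.83 to 6.97 in the C-limited snf1 groups (low, then high) and at 10.85 to 11.01 and 11.55 to 11.72 in the groups titled N. The groups titled N thus carried high DAL5 signal and the others low signal, without overlap. The marker goes with the titles and against the descriptions of those 6 arrays.

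Inositol and choline are the head groups of phosphatidylinositol and phosphatidylcholine. In yeast a supply of both represses INO1 and the genes of phospholipid synthesis, through the repressor Opi1 and the activators Ino2 and Ino4. Shortage of inositol is known to raise the unfolded protein response of the endoplasmic reticulum (ER), whose sensor Ire1 splices the mRNA of the transcription factor Hac1. Snf1 is the yeast AMP-activated kinase. Under glucose shortage it is needed for full expression of gluconeogenic, glyoxylate, carnitine and peroxisomal genes, acting through Adr1, Cat8 and the repressor Mig1, and it also phosphorylates acetyl-CoA carboxylase.

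Array quality differed between the groups. For 7 control genes the 3′ minus 5′ signal, which grows as RNA is degraded or labelling falls short, was 0.78 to 0.87 (log2) in the C-limited low group and 1.14 to 1.25 in the C-limited high group. Under N limitation it was 0.91 to 0.93 at the low level and 1.23 to 2.67 at the high level, with replicate 1 of the high group highest. Its own N minus C difference of responses was 0.55 in snf1 and 0.79 in Reference. The spiked control dap lay at 5.57 to 5.93 and 5.55 to 5.88 in the low groups (C, then N) and at 6.78 to 7.28 and 5.72 to 6.84 in the high groups. The part of labelling and RNA quality in the results was not tested beyond the values given here and under other settings. A value after ± is limma's standard error of a log2 difference (3 arrays per group). Its spread per gene is pooled over all 8 groups of the 24 arrays, so it is not that of the groups compared. Single arrays of the N-limited high group varied by 0.15 to 0.31 (SD over genes, log2), and those of the other snf1 groups by at most 0.076. Levels are log2 signals per array, replicates 1, 2 and 3 in order.

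The inositol-choline response was taken as the high minus the low level. It was called, at a limma adjusted p under 0.05, for 1274 genes under C limitation (23.4% of all genes, 556 (10.2%) higher and 718 (13.2%) lower) and for 2026 under N limitation (37.2%, 1062 (19.5%) higher and 964 (17.7%) lower). The interaction is the response under N limitation minus the response under C limitation. A positive value means that the response was more upward, or less downward, under N limitation. It was called for 819 of the 5449 genes (15%), 488 positive (8.96%) and 331 negative (6.07%). Of these, 40 positive and 31 negative values were 2-fold or more. Without replicate 1 of the N-limited high group of each strain, the arrays of lowest 5′ signal, 1787 genes were called in the interaction and 2907 in the C response. Of those 1787, 1049 were positive and 738 negative. With 1 array left out at a time, 605 to 1184 genes were called in the interaction. Replicate 3 of the N-limited high group of snf1 left out gave 728 positive and 444 negative genes. Replicate 1 of that group of Reference left out gave 704 and 480. List counts under these settings stand beside these totals. When the 6 arrays of a response were fitted alone, 738 genes were called under N and 3301 under C limitation. The median interaction over all genes was 0.02, and the median size was 0.46 among called genes against 0.17 over all. Of the 1746 S. pombe probe sets, which have no target here, the limma test called 1 in each response. Total RNA of whole cultures was measured, so that fewer cells holding a transcript and less of it per cell cannot be told apart.

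Most genes called in the interaction were also called in 1 response and not in the other. Among the 488 positive genes, 247 (50.6%) were higher under N limitation and not called under C limitation, and 130 (26.6%) were lower under C limitation and not called under N limitation. For 62 (12.7%) both responses were called, lower under C and higher under N limitation. Of the 331 negative genes, 148 (44.7%) were lower under N limitation alone, 95 (28.7%) higher under C limitation alone, and 46 (13.9%) higher under C and lower under N limitation. A response that was not called was not shown to be absent. The plot of the 2 responses against each other shows these classes.

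**Figure D1:**
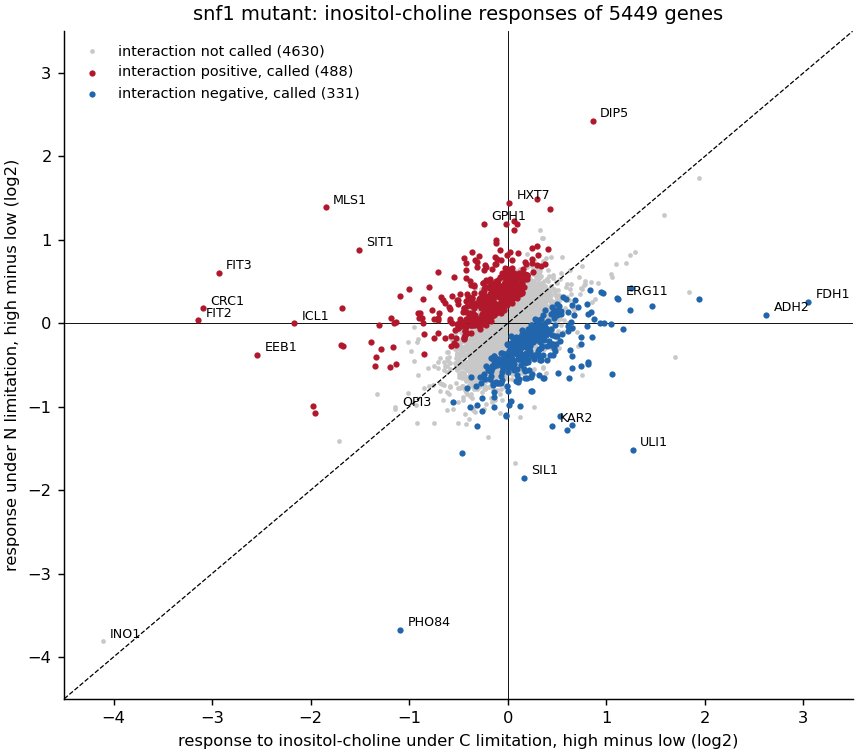
Response to inositol-choline under C limitation (x axis, log2 high minus low) against that under N limitation (y axis, log2 high minus low) for 5449 genes of the snf1 mutant, 1 point a gene, with called positive interactions in red (488), called negative ones in blue (331) and the line of equal responses dashed. FIT2, FIT3 and CRC1 lie far left near 0 on the y axis, ULI1, SIL1 and KAR2 lie low and right of 0, and INO1 lies near the dashed line at the lower left.

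Genes of protein folding and quality control in the ER had the largest share of negative interactions among the 39 gene lists described. Of 37 measured genes, 20 (54.1%) were called negative, against 6.07% of all genes, and the other 17 were not called. The list's median interaction was -0.64, with a median response of 0.11 under C and -0.51 under N limitation. Under N limitation 22 members fell (17.7% of all genes did), and under C limitation 9 rose (10.2% of all genes did). ULI1, a gene named for its induction by the unfolded protein response, was at 6.68, 6.58 and 6.70 under C limitation at the low level and at 7.91, 7.92 and 7.94 at the high level, and under N limitation at 8.06, 8.14 and 8.16 and at 6.74, 6.61 and 6.46. High inositol-choline thus went with more ULI1 signal under C limitation and less under N limitation, and no arrays of the paired levels overlapped. It rose 2.41-fold under C limitation and fell 2.86-fold under N limitation, with an interaction of -2.79 ± 0.088 (adjusted p = 3.86e-14).

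KAR2 encodes the Hsp70 chaperone of the ER lumen. Its transcript was at 10.57, 10.53 and 10.55 under C limitation at the low level and at 11.02, 10.97 and 11.02 at the high level, and under N limitation at 11.40, 11.44 and 11.49 and at 9.86, 10.29 and 10.49. The N-limited low arrays were the highest of the 4 groups and the N-limited high arrays the lowest. Its interaction was -1.68 ± 0.19 (adjusted p = 4.65e-06). SIL1, the nucleotide exchange factor of Kar2, was at 7.63, 7.56 and 7.65 under C limitation at the low level and at 7.78, 7.77 and 7.77 at the high level, and under N limitation at 8.84, 8.95 and 8.98 and at 6.79, 7.22 and 7.21. All N-limited high arrays lay below every other array, and the interaction was -2.01 ± 0.16 (adjusted p = 5.06e-08). Its response under C limitation, 0.16, was not called.

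ERO1, the thiol oxidase that drives disulfide formation in the ER, was at 8.79, 8.64 and 8.83 under C limitation at the low level and at 9.47, 9.34 and 9.42 at the high level, and under N limitation at 9.75, 9.67 and 9.81 and at 8.86, 8.30 and 8.39. It rose under C limitation and fell under N limitation, with an interaction of -1.88 ± 0.18 (adjusted p = 6.76e-07). MCD4, a phosphoethanolamine transferase of glycosylphosphatidylinositol anchor synthesis, followed the same course with responses of 0.53 and -1.11 (C, then N) and an interaction of -1.64 ± 0.095 (adjusted p = 4.4e-10). Of the remaining 22 measured genes of anchor synthesis 1 more was called negative. Another 4 were positive without replicate 1 of the N-limited high group of Reference, as were 704 of all 5449 genes. Without replicate 1 of both N-limited high groups, 6 of all 23 anchor genes were negative and 3 positive. That setting gave 738 negative and 1049 positive among all 5449 genes. MPD1, a relative of protein disulfide isomerase, and FPR2, a peptidyl-prolyl isomerase of the ER, had no called response under C limitation. Under N limitation they fell by 1.11 and 0.93 on the log2 scale, with interactions of -1.09 ± 0.11 (adjusted p = 1.87e-06) and -0.96 ± 0.066 (adjusted p = 6.29e-09). YET2, a membrane protein of the ER outside the list, had an interaction of -1.89 ± 0.28 (adjusted p = 0.000105).

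The regulators of the response, chosen after their values were seen, were not called. HAC1 was at 10.38, 10.49 and 10.38 under C limitation at the low level and at 10.44, 10.53 and 10.50 at the high level, and under N limitation at 10.67, 10.71 and 10.74 and at 7.07, 9.75 and 10.27. Replicate 1 of the N-limited high group, the array of lowest 5′ signal, stood far below the others, and the interaction was -1.75 ± 0.93 (adjusted p = 0.234). Without that array and replicate 1 of the matching Reference group it was -0.77 (adjusted p = 0.000528). The probe set measures the level of HAC1 transcripts, not their splicing. IRE1, the sensor kinase, had an interaction of -0.36 ± 0.29 (adjusted p = 0.457), and its values on the N-limited high arrays were 6.26, 7.08 and 7.22 against 7.04 to 7.09 at the low level.

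**Figure D2:**
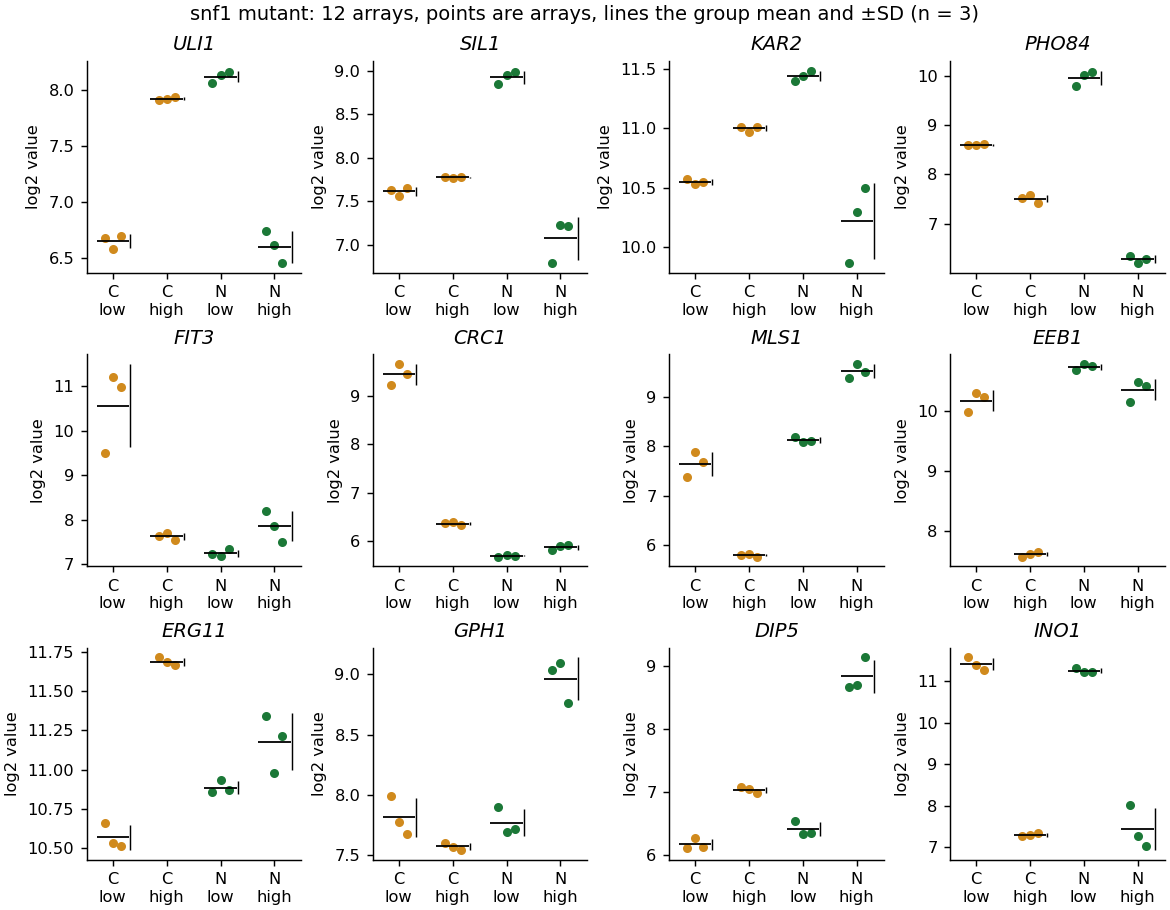
Log2 signal (y axis) on each of the 12 snf1 arrays (points) by group (x axis, C or N limitation and low or high inositol-choline) for 12 genes, with the group mean as a horizontal and ± 1 SD as a vertical line (n = 3). ULI1 is high in the C-limited high and N-limited low groups, FIT3 and CRC1 in the C-limited low group alone, EEB1 is low in the C-limited high group alone, and INO1 is high in both low groups.

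Ergosterol is the main sterol of yeast membranes, and its synthesis from acetyl-CoA passes through mevalonate, squalene and lanosterol. Of 30 measured genes, 13 (43.3%) had a negative interaction and 1 a positive one, against 6.07% and 8.96% of all genes. The median interaction was -0.56, and the median response 0.47 under C and 0.06 under N limitation. Under C limitation 18 members rose with high inositol-choline, against 10.2% of all genes. Under N limitation 8 rose and 3 fell, against 19.5% and 17.7%.

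ERG10, the first step of the pathway, was at 10.41, 10.45 and 10.42 under C limitation at the low level and at 10.84, 10.84 and 10.78 at the high level, and under N limitation at 10.44, 10.51 and 10.51 and at 10.37, 10.35 and 10.34. It rose under C limitation and fell slightly under N limitation, with an interaction of -0.53 ± 0.055 (adjusted p = 1.87e-06). ERG1, squalene epoxidase, was at 9.77, 9.68 and 9.55 under C limitation at the low level and at 10.65, 10.66 and 10.63 at the high level, and under N limitation at 9.89, 9.86 and 9.90 and at 9.98, 9.68 and 9.98. The C-limited high arrays stood above all others, while the N-limited groups overlapped, and the interaction was -0.98 ± 0.12 (adjusted p = 8.35e-06). ERG7, lanosterol synthase, was at 8.49, 8.35 and 8.34 under C limitation at the low level and at 9.56, 9.47 and 9.47 at the high level, and under N limitation at 8.59, 8.52 and 8.55 and at 8.87, 8.87 and 8.83. It rose under both limitations, 2.15-fold under C and 1.23-fold under N, so that its interaction of -0.80 ± 0.077 (adjusted p = 6.71e-07) is a smaller rise.

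ERG11, the lanosterol demethylase, and ERG25, a methyl sterol oxidase, also rose under both limitations. Their responses were 1.12 and 0.97 under C and 0.29 and 0.37 under N limitation. Their interactions were -0.83 ± 0.13 (adjusted p = 0.000195) and -0.60 ± 0.083 (adjusted p = 4.5e-05). ERG6, the sterol methyltransferase, rose under C limitation and was not called under N limitation, with an interaction of -0.82 ± 0.093 (adjusted p = 4.6e-06). ERG27, a sterol keto reductase, rose under C and fell under N limitation, with responses of 0.31 and -0.40. CYB5, whose product gives electrons to sterol and other lipid enzymes, was outside the list and went the same way, with an interaction of -1.28 ± 0.11 (adjusted p = 1.19e-07). HMG2, an isoenzyme of HMG-CoA reductase, was the positive member at 0.32 ± 0.099 (adjusted p = 0.0343), but it was not called when any 1 of 9 snf1 arrays was left out. Without replicate 1 of both N-limited high groups, the arrays of lowest 5′ signal, 23 genes of the list were called negative. In that setting 738 of all 5449 genes were negative.

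**Figure D3:**
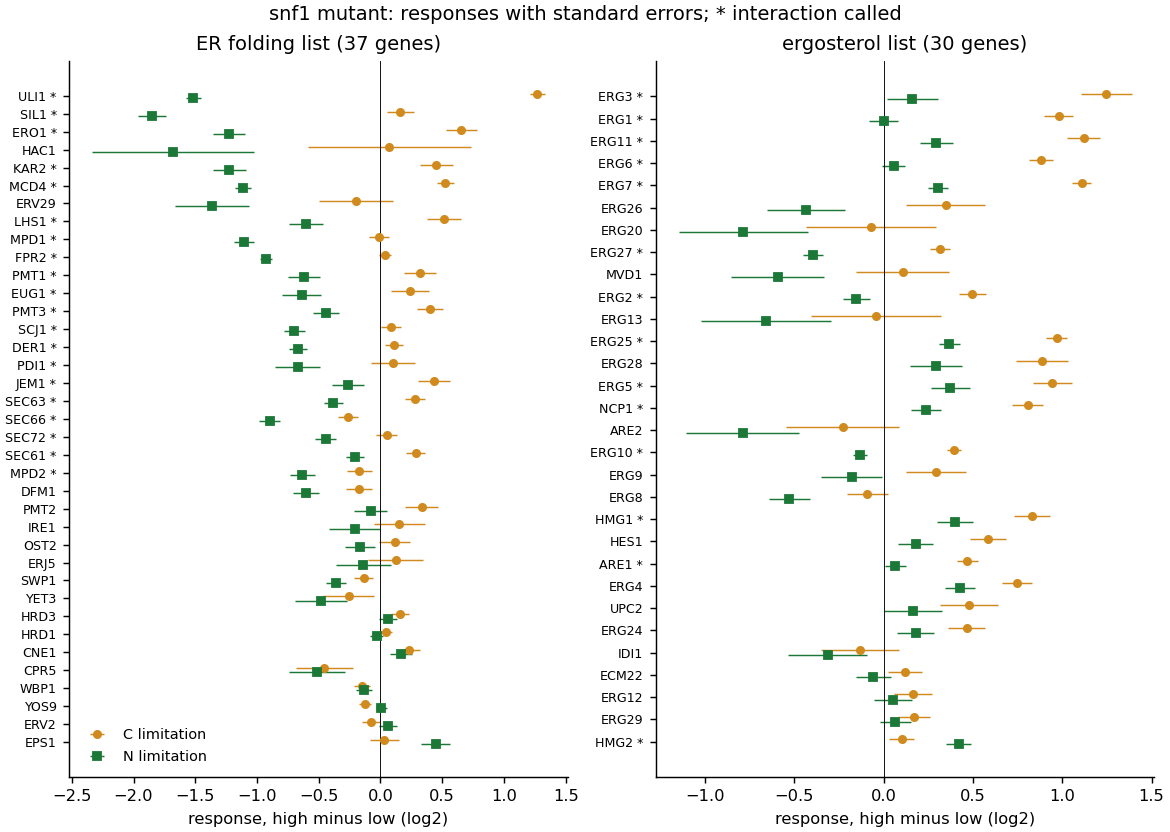
Response to inositol-choline (x axis, log2 high minus low, with standard errors) under C limitation (orange circles) and N limitation (green squares) for the 37 genes of the ER folding list (left) and the 30 of the ergosterol list (right), ordered by interaction, with a star where the interaction was called. Most ER genes lie left of 0 under N limitation, with medians of 0.11 (C) and -0.51 (N), and most ergosterol genes lie right of 0 under C limitation, with medians of 0.47 (C) and 0.06 (N).

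Phospholipid synthesis genes mostly fell with high inositol-choline under both limitations. Of 27 measured genes, 16 fell under C and 17 under N limitation (13.2% and 17.7% of all genes did), with median responses of -0.37 and -0.40. INO1, inositol-phosphate synthase, was at 11.57, 11.39 and 11.28 under C limitation at the low level and at 7.26, 7.29 and 7.35 at the high level, and under N limitation at 11.32, 11.21 and 11.23 and at 8.02, 7.28 and 7.04. Both high groups stood far below both low groups. The falls were 17.2-fold and 14-fold, and the interaction was 0.30 ± 0.22 (adjusted p = 0.409), with a 95% interval of -0.16 to 0.76. CHO1, phosphatidylserine synthase, fell by 0.93 and 0.98 on the log2 scale, with an interaction of -0.05 ± 0.098 (adjusted p = 0.78) and an interval of -0.25 to 0.16.

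OPI3 and CHO2, the methyltransferases that make phosphatidylcholine, had interactions of 0.12 ± 0.14 (adjusted p = 0.629) and 0.13 ± 0.12 (adjusted p = 0.498). ITR1, the inositol transporter gene, had 0.29 ± 0.12 (adjusted p = 0.112). HNM1, the choline transporter gene, was at 9.51, 9.39 and 9.34 under C limitation at the low level and at 9.12, 9.09 and 9.07 at the high level, and under N limitation at 9.97, 9.93 and 10.02 and at 8.89, 9.86 and 9.98. Its replicate 1 of the N-limited high group was lowest of the 12, and the interaction was -0.08 ± 0.33 (adjusted p = 0.896). The 3 called members of the list were EPT1 and PSD2, at -0.27 and -0.23, and CPT1, at 0.31. Their counts, 7.41% negative and 3.70% positive, lie near those over all genes, and they were not called without any 1 of 5, 14 and 9 arrays respectively. The negative count was 4 without replicate 3 of the N-limited high group.

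Of 18 genes of fatty acid synthesis, 4 (22.2%) were negative and 1 (5.56%) positive, against 6.07% and 8.96% of all genes. The positive count was 2 without replicate 3 of the N-limited high group. ELO1, which elongates medium-chain fatty acids, was at 9.91, 9.97 and 9.92 under C limitation at the low level and at 8.59, 8.61 and 8.58 at the high level, and under N limitation at 9.70, 9.71 and 9.64 and at 9.06, 9.43 and 9.33. It fell under both limitations, more under C limitation, with an interaction of 0.93 ± 0.098 (adjusted p = 1.97e-06). ELO2 and ELO3, which make the very long chains, fell under N limitation by 0.72 and 0.72 on the log2 scale. Their interactions were -0.45 ± 0.11 (adjusted p = 0.00706) and -0.57 ± 0.10 (adjusted p = 0.00078), opposite in sign to that of ELO1. ACB1, the acyl-CoA binding protein, had -0.37 ± 0.095 (adjusted p = 0.0116). FAS1, encoding the synthase's beta subunit, rose under both limitations and was not called in the interaction, -0.23 ± 0.081 (adjusted p = 0.0651).

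The highest interaction of the 5449 genes was that of FIT3, a gene of siderophore iron uptake. Yeast takes up iron bound to siderophores through Arn-family transporters, with the help of Fit mannoproteins of the cell wall, and free iron through ferric reductases and the ferroxidase Fet3. Of the 7 siderophore genes measured, 5 were positive, against 8.96% of all genes, and the median interaction was 0.72. Under C limitation 5 of them fell with high inositol-choline (13.2% of all genes did). FIT2 was at 9.58, 11.12 and 10.70 under C limitation at the low level and at 7.37, 7.36 and 7.25 at the high level, and under N limitation at 6.37, 6.30 and 6.41 and at 6.68, 6.38 and 6.12. The C-limited low arrays were well above all others, with replicate 1 lowest of the 3, and the N-limited groups overlapped. It fell 8.81-fold under C limitation, and its interaction was 3.18 ± 0.33 (adjusted p = 2.03e-06).

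FIT3 was at 9.49, 11.20 and 10.98 under C limitation at the low level and at 7.63, 7.70 and 7.55 at the high level, and under N limitation at 7.23, 7.18 and 7.34 and at 8.20, 7.86 and 7.51. Again the C-limited low group was the highest with its replicate 1 below the other two, and the interaction was 3.54 ± 0.40 (adjusted p = 4.9e-06). SIT1, a transporter of ferrioxamine, was at 6.73, 7.99 and 7.66 under C limitation at the low level and at 6.01, 5.89 and 5.96 at the high level, and under N limitation at 6.16, 6.05 and 6.10 and at 7.38, 6.84 and 6.74. It fell under C limitation and rose under N limitation, with an interaction of 2.39 ± 0.31 (adjusted p = 2.23e-05). ENB1, the enterobactin transporter, had 0.72 ± 0.20 (adjusted p = 0.0211) and was not called without replicate 2 or 3 of the C-limited low group or replicate 3 of the C-limited high group (adjusted p up to 0.0572).

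FIT1 had a small interaction of 0.33 ± 0.089 (adjusted p = 0.0157). ARN1 just missed the threshold at 0.69 ± 0.23 (adjusted p = 0.0515). Its values on the C-limited low arrays were 6.96, 8.06 and 7.78, and without replicate 1 of that group the interaction was 1.01 and called, as it also was without replicate 1 of the N-limited high group of Reference. ARN2 lay under the background on every array. FET3, the ferroxidase, was at 8.45, 9.79 and 9.42 under C limitation at the low level and at 7.76, 7.92 and 7.80 at the high level, and under N limitation at 7.36, 7.39 and 7.34 and at 7.12, 7.25 and 7.04. It had the same low replicate 1 in the C-limited low group. Its interaction was 1.16 ± 0.28 (adjusted p = 0.00759), with adjusted p = 0.0539 when the 12 snf1 arrays alone were fitted.

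Of the 26 genes of reductive uptake and the wider iron regulon, 7 (26.9%) were positive, against 8.96% of all genes. The other 19 were not called, and the median was 0.24. CCC2, the copper transporter that loads Fet3, was at 0.77 ± 0.16 (adjusted p = 0.00218). FRE2, a ferric reductase, rose under N limitation by 0.32 and had an interaction of 0.35 ± 0.073 (adjusted p = 0.0029). CCC1, which stores iron in the vacuole, had 0.43 ± 0.11 (adjusted p = 0.0119).

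The carnitine shuttle moves acetyl groups into mitochondria. Of its 6 measured genes, 4 fell under C limitation with high inositol-choline, as 13.2% of all genes did, and 4 had a positive interaction, against 8.96% of all genes. CRC1, the mitochondrial carnitine carrier, was at 9.23, 9.66 and 9.47 under C limitation at the low level and at 6.37, 6.38 and 6.32 at the high level, and under N limitation at 5.67, 5.70 and 5.69 and at 5.80, 5.89 and 5.91. Signal was high in the C-limited low group alone. CRC1 fell 8.55-fold under C limitation, was not called under N limitation and had an interaction of 3.27 ± 0.11 (adjusted p = 3.86e-14).

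The carnitine acetyltransferase genes YAT1, YAT2 and CAT2 fell under C limitation by 1.68, 1.09 and 0.91 on the log2 scale. YAT1 was at 9.25 to 9.84 on the C-limited low arrays and at 7.85 to 7.91 on the high ones, and its interaction was 1.87 ± 0.15 (adjusted p = 8.9e-08). YAT2 and CAT2 had 1.42 ± 0.18 (adjusted p = 2.23e-05) and 1.04 ± 0.10 (adjusted p = 1.06e-06). The remaining members, the transporters AGP2 and HNM1, were not called. AGP2, a plasma membrane transporter that takes up carnitine, was at 6.07, 7.14 and 7.33 on the N-limited high arrays, with replicate 1 lowest, and its interaction was 0.05 ± 0.40 (adjusted p = 0.959).

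Of 24 genes of gluconeogenesis, the glyoxylate cycle and their regulators, 11 (45.8%) were positive and 3 (12.5%) negative. Over all genes 8.96% were positive and 6.07% negative. MLS1, malate synthase, was at 7.38, 7.87 and 7.67 under C limitation at the low level and at 5.80, 5.81 and 5.77 at the high level, and under N limitation at 8.18, 8.08 and 8.10 and at 9.38, 9.66 and 9.50. It fell 3.60-fold under C limitation and rose 2.62-fold under N limitation, without overlap, and its interaction was 3.24 ± 0.17 (adjusted p = 1.56e-10). ICL1, isocitrate lyase, the other enzyme of the cycle, was at 8.28, 9.09 and 8.72 under C limitation at the low level and at 6.55, 6.53 and 6.50 at the high level, and under N limitation at 6.51, 6.56 and 6.54 and at 6.50, 6.71 and 6.40. The C-limited low arrays stood above all others. Its interaction of 2.17 ± 0.17 (adjusted p = 5.96e-08) came with a response of 0.00, not called, under N limitation, where MLS1 rose.

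MDH2, the cytosolic malate dehydrogenase, fell under both limitations, by 1.67 and 0.27 on the log2 scale (C, then N), with an interaction of 1.40 ± 0.12 (adjusted p = 1.81e-07). IDP2, cytosolic isocitrate dehydrogenase, had 0.94 ± 0.12 (adjusted p = 2.3e-05). SFC1, the succinate-fumarate carrier, fell 2.23-fold under C limitation and lay under the background in both N-limited groups. CIT2, peroxisomal citrate synthase, and CAT8, an activator of the gluconeogenic genes, had smaller interactions of 0.47 ± 0.10 (adjusted p = 0.00398) and 0.33 ± 0.078 (adjusted p = 0.00717).

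A few genes went the opposite way. ADH2, the alcohol dehydrogenase of ethanol use, was at 7.70, 6.18 and 6.46 under C limitation at the low level and at 9.33, 9.48 and 9.41 at the high level, and under N limitation at 5.95, 5.95 and 5.98 and at 6.28, 5.96 and 5.93. It rose 6.17-fold under C limitation, with replicate 1 of the low group above the other two, and its interaction was -2.53 ± 0.53 (adjusted p = 0.00266). FDH1, formate dehydrogenase, was at 6.51, 5.60 and 5.81 under C limitation at the low level and at 9.04, 8.96 and 9.07 at the high level, and under N limitation at 5.35, 5.28 and 5.22 and at 5.60, 5.45 and 5.57. It rose 8.29-fold under C limitation. Its N-limited low arrays were all under the background and the high ones at its edge, so no fold is given there. The fitted interaction, which rests in part on those levels, was -2.79 ± 0.24 (adjusted p = 1.19e-07). STL1, a glycerol transporter, fell under N limitation and had -0.62 ± 0.14 (adjusted p = 0.00474).

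Of 18 genes of peroxisomal beta-oxidation, 5 (27.8%) were positive and 2 (11.1%) negative, against 8.96% and 6.07% of all genes. Under C limitation 10 of the 18 fell, where 13.2% of all genes did. POT1, the thiolase, was at 9.69, 9.38 and 9.46 under C limitation at the low level and at 7.56, 7.51 and 7.52 at the high level, and under N limitation at 7.30, 7.34 and 7.35 and at 6.29, 6.47 and 6.26. It fell under both limitations, 3.95-fold under C and 1.99-fold under N, and its interaction of 0.99 ± 0.13 (adjusted p = 1.98e-05) is a smaller fall. ECI1 and DCI1, enoyl-CoA isomerase and its relative, had 0.65 ± 0.12 (adjusted p = 0.000835) and 0.59 ± 0.10 (adjusted p = 0.000676), and the peroxisomal malate dehydrogenase MDH3 0.47 ± 0.072 (adjusted p = 0.000149). POX1, the acyl-CoA oxidase of the first step, fell under N limitation instead, with -0.59 ± 0.13 (adjusted p = 0.00495). Of 27 genes of peroxisome formation, 3 (11.1%) were positive, and 1 to 7 when 1 array was left out. The count was lowest without replicate 3 of the C-limited high group and highest without replicate 3 of the N-limited high group.

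Among 5 genes of ester metabolism, EEB1 and ATF2 were called with opposite signs. EEB1, an ethyl ester synthase acting on medium-chain acyl-CoA, was at 9.97, 10.30 and 10.22 under C limitation at the low level and at 7.58, 7.62 and 7.65 at the high level, and under N limitation at 10.67, 10.76 and 10.73 and at 10.14, 10.47 and 10.41. The C-limited high group stood alone below the rest. It fell 5.83-fold under C limitation and 1.30-fold under N limitation, with an interaction of 2.16 ± 0.13 (adjusted p = 4.4e-10). ATF2, an acetyltransferase for alcohols and sterols, was at 5.85, 5.98 and 5.97 under C limitation at the low level and at 6.98, 7.02 and 6.98 at the high level, and under N limitation at 6.46, 6.49 and 6.51 and at 5.74, 5.89 and 6.0. It rose under C limitation and fell under N limitation, with an interaction of -1.67 ± 0.090 (adjusted p = 1.56e-10). EHT1, ATF1 and the esterase gene IAH1 were at 0.20, 0.25 and -0.10 and were not called.

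**Figure D4:**
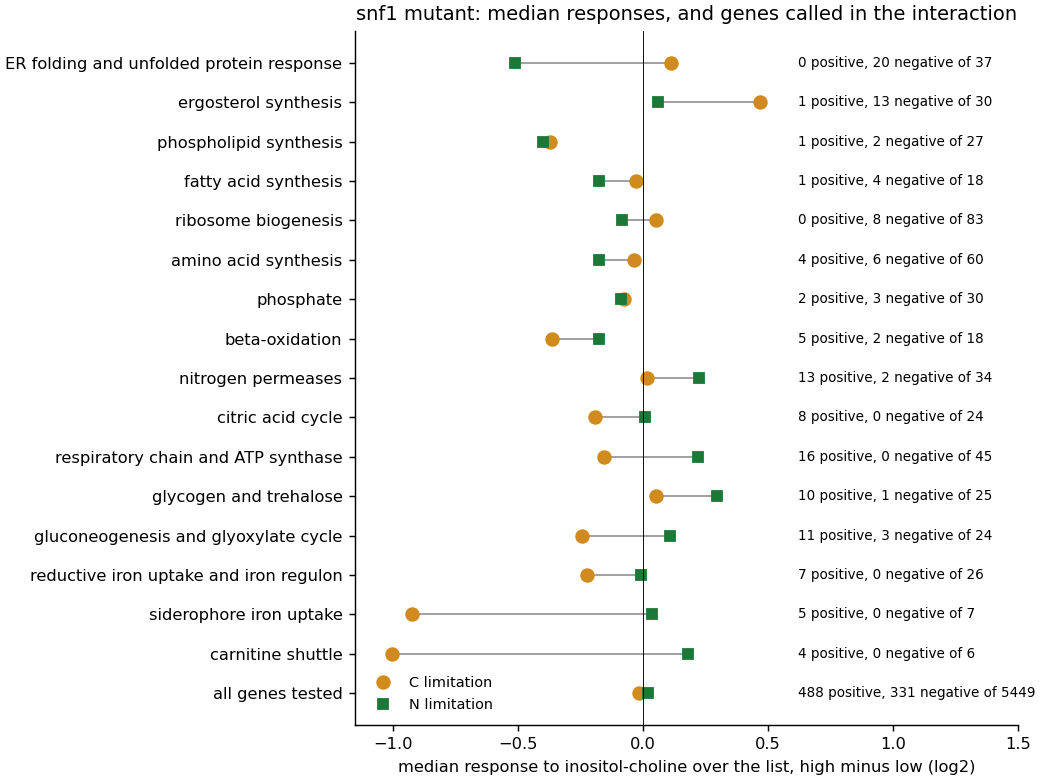
Median response to inositol-choline (x axis, log2 high minus low) over each of 16 gene lists and over all 5449 genes, under C limitation (orange circles) and N limitation (green squares) in the snf1 mutant, with the number of genes called positive and negative in the interaction at the right. The carnitine and siderophore iron lists lie far left under C limitation, at -1.0 and -0.92, and the ER folding list far left under N limitation, at -0.51.

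PHO84, the high-affinity phosphate transporter gene of the Pho4 regulon, was at 8.59, 8.59 and 8.61 under C limitation at the low level and at 7.52, 7.58 and 7.42 at the high level, and under N limitation at 9.79, 10.01 and 10.07 and at 6.35, 6.20 and 6.29. It fell 12.8-fold under N limitation and 2.13-fold under C limitation, and its interaction was -2.59 ± 0.096 (adjusted p = 3.16e-13). Of 30 phosphate and polyphosphate genes 3 were negative and 2 positive, so the list was close to the background share in both directions. VTC3, a subunit of the polyphosphate polymerase, and SPL2, an inhibitor of low-affinity phosphate uptake, had -0.78 ± 0.096 (adjusted p = 1.17e-05) and -0.62 ± 0.11 (adjusted p = 0.000725). PHO89, the sodium-coupled phosphate transporter, fell under C limitation and had 0.75 ± 0.14 (adjusted p = 0.000914), opposite in sign to PHO84. PHM7, a membrane protein gene of the list, had 0.99 ± 0.15 (adjusted p = 0.000146).

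Permease genes for nitrogen compounds had more positive than negative interactions. Of 34 measured permease genes and their regulators, 13 (38.2%) were positive and 2 (5.88%) negative, against 8.96% and 6.07% of all genes. Under N limitation 14 of the 34 rose, where 19.5% of all genes did. DIP5, the permease for glutamate and aspartate, was at 6.12, 6.28 and 6.13 under C limitation at the low level and at 7.08, 7.05 and 6.99 at the high level, and under N limitation at 6.54, 6.34 and 6.35 and at 8.67, 8.70 and 9.14. It rose 1.82-fold under C and 5.36-fold under N limitation, without overlap, and its interaction was 1.56 ± 0.16 (adjusted p = 1.91e-06). GAP1, the general amino acid permease, was at 9.10, 8.44 and 8.40 under C limitation at the low level and at 8.12, 8.13 and 8.06 at the high level, and under N limitation at 11.06, 10.98 and 10.98 and at 11.41, 11.56 and 11.73. It fell under C limitation and rose under N limitation, with an interaction of 1.11 ± 0.19 (adjusted p = 0.000622).

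DUR3, the urea permease, rose 2.33-fold under N limitation and had an interaction of 1.16 ± 0.16 (adjusted p = 3.2e-05). MEP2, the ammonium permease, had 0.99 ± 0.17 (adjusted p = 0.000359), and DAL5 0.84 ± 0.098 (adjusted p = 6.28e-06). MUP3, a methionine permease, rose under N limitation by 0.71 and had 0.83 ± 0.12 (adjusted p = 5.73e-05). TAT1, a tyrosine and tryptophan permease, was under the background in the C-limited high group, so that its fall under C limitation was at least 1.20-fold. Its interaction was called positive (adjusted p = 0.000137), without an exact size. HIP1, the histidine permease, was negative at -0.84 ± 0.17 (adjusted p = 0.00181); it rose under C limitation and fell under N limitation. Without replicate 1 of both N-limited high groups, 20 permease genes were positive, as were 1049 of all 5449 genes. The negative permease count was 1 without any 1 of 13 arrays.

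Among 32 genes that break down or assimilate nitrogen compounds, 6 (18.8%) were positive and 4 (12.5%) negative, against 8.96% and 6.07% of all genes. Without replicate 1 of the N-limited high group of snf1, 10 were positive. CAR1, arginase, fell under N limitation and had -1.08 ± 0.19 (adjusted p = 0.000722). ARO9 and ARO10, which degrade aromatic amino acids, had -1.01 ± 0.17 (adjusted p = 0.000318) and -0.77 ± 0.14 (adjusted p = 0.000753). GLT1, glutamate synthase, rose under N limitation and had 0.50 ± 0.092 (adjusted p = 0.000941).

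Many glycogen and trehalose genes rose under N limitation. Of 25 measured, 16 rose under N limitation and 1 under C limitation (19.5% and 10.2% of all genes did), and 10 (40.0%) had a positive and 1 a negative interaction. GPH1, glycogen phosphorylase, was at 7.99, 7.78 and 7.68 under C limitation at the low level and at 7.60, 7.57 and 7.54 at the high level, and under N limitation at 7.90, 7.69 and 7.72 and at 9.03, 9.09 and 8.76. The N-limited high arrays stood above all others, and the interaction was 1.43 ± 0.13 (adjusted p = 4.35e-07). GAC1, which targets a phosphatase to glycogen synthase, fell under C and rose under N limitation, with 1.14 ± 0.18 (adjusted p = 0.000201). GSY1, a glycogen synthase, fell under C limitation and had 0.79 ± 0.11 (adjusted p = 7.42e-05). Glycogenin GLG1, the trehalose synthase subunit TSL1 and the trehalase NTH2 had 0.42, 0.54 and 0.52. The positive count was 18 without replicate 1 of both N-limited high groups, where 1049 of all 5449 genes were positive.

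Respiratory chain genes were positive in 16 of 45 cases (35.6%), against 8.96% of all genes. The other 29 were not called, and the median interaction of the list was 0.28. Under N limitation 20 of the 45 rose, against 19.5% of all genes. Under C limitation 9 fell, a share of 20.0% against 13.2% of all genes. NDE2, an external NADH dehydrogenase, was at 7.97, 8.09 and 7.88 under C limitation at the low level and at 7.21, 7.23 and 7.10 at the high level, and under N limitation at 6.05, 5.98 and 5.97 and at 6.77, 6.44 and 6.12. It fell under C and rose under N limitation, with an interaction of 1.24 ± 0.17 (adjusted p = 4e-05). CYC7, the minor cytochrome c isoform, had 1.22 ± 0.14 (adjusted p = 3.87e-06). SDH3 of succinate dehydrogenase, QCR7 of the cytochrome bc complex, COX12 of cytochrome oxidase and the ATPase inhibitor INH1 had smaller values of 0.61, 0.56, 0.53 and 0.59. The counts were 31 positive and 2 negative without replicate 1 of both N-limited high groups. Over all 5449 genes that setting gave 1049 positive and 738 negative.

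Of 24 genes of the tricarboxylic acid cycle, 8 (33.3%) were positive, against 8.96% of all genes, and the other 16 were not called. MDH1, mitochondrial malate dehydrogenase, was at 10.61, 10.74 and 10.73 under C limitation at the low level and at 10.28, 10.28 and 10.28 at the high level, and under N limitation at 9.40, 9.45 and 9.42 and at 9.88, 9.74 and 9.73. It fell under C and rose under N limitation, with an interaction of 0.77 ± 0.072 (adjusted p = 6.03e-07). IDH2, a subunit of isocitrate dehydrogenase, and ACO1, aconitase, had 0.88 ± 0.13 (adjusted p = 0.000138) and 0.61 ± 0.16 (adjusted p = 0.0153). LPD1, the lipoamide dehydrogenase, had 0.53 ± 0.14 (adjusted p = 0.0171). The positive count was 5 without replicate 3 of the N-limited low group and 16 without replicate 1 of both N-limited high groups. The former setting gave 362 and the latter 1049 positive among all 5449 genes.

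HXT7, a high-affinity glucose transporter whose probe set also reads the near-identical HXT6, was at 11.35, 11.35 and 11.45 under C limitation at the low level and at 11.37, 11.37 and 11.46 at the high level, and under N limitation at 7.26, 6.87 and 7.09 and at 8.76, 8.45 and 8.35. The C-limited groups overlapped, and under N limitation HXT7 rose 2.73-fold, with an interaction of 1.43 ± 0.14 (adjusted p = 1.26e-06). HXT2, another glucose transporter, rose under C limitation and had -0.99 ± 0.23 (adjusted p = 0.00659). The glucose sensor gene SNF3 and MTH1, a corepressor of hexose transporter genes, had 0.53 ± 0.11 (adjusted p = 0.00188) and 0.72 ± 0.16 (adjusted p = 0.0042). In all, 3 of 25 hexose uptake genes were positive and 1 negative. The positive count was 7 without replicate 1 of the N-limited high group of Reference, 6 without that of snf1 and 11 without both. Over all 5449 genes the same settings gave 704, 513 and 1049 positive.

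Of 50 general stress genes, 12 (24%) were positive and 3 (6.0%) negative, against 8.96% and 6.07% of all genes. DDR2, a multistress gene, was at 10.48, 10.43 and 10.42 under C limitation at the low level and at 10.47, 10.54 and 10.51 at the high level, and under N limitation at 9.59, 9.47 and 9.45 and at 10.59, 10.77 and 10.49. It rose 2.16-fold under N limitation, with 1.05 ± 0.11 (adjusted p = 1.97e-06). RGI1, a respiratory growth gene, and PRX1, a mitochondrial peroxiredoxin, had 0.90 ± 0.11 (adjusted p = 1.19e-05) and 0.64 ± 0.081 (adjusted p = 1.75e-05). GRE1, a hydrophilin gene, and TSA2, a cytosolic peroxiredoxin, were negative with -1.26 ± 0.24 (adjusted p = 0.00135) and -0.47 ± 0.12 (adjusted p = 0.0111). Without replicate 1 of both N-limited high groups 20 stress genes were positive and 8 negative, against 1049 and 738 of all 5449 genes. The negative stress count was 5 without replicate 1 or 3 of the Reference group alone. It was 6 without replicate 1 of the snf1 group alone. Over all 5449 genes these settings gave 480, 365 and 345 negative.

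Cell wall genes moved in both directions, with 6 of 32 positive (18.8%) and 4 negative (12.5%), against 8.96% and 6.07% of all genes. HPF1, a cell wall mannoprotein gene, rose under both limitations, 1.23-fold under C and 2.81-fold under N, with an interaction of 1.19 ± 0.13 (adjusted p = 4.6e-06). FLO11, the flocculin of adhesion and filamentous growth, fell under C and rose under N limitation, with 1.32 ± 0.13 (adjusted p = 1.07e-06). In the Snf1 pathway itself, 5 of 23 genes were positive (21.7%) and 2 negative (8.70%). The positive count was 3 without replicate 1 of the C-limited low group. SIP2, a beta subunit of the kinase, rose under N limitation and had 0.45 ± 0.11 (adjusted p = 0.0104). TOS3, a kinase that activates Snf1, fell under N limitation and had -0.62 ± 0.082 (adjusted p = 2.86e-05). MIG3, a repressor related to Mig1, had 0.54 ± 0.076 (adjusted p = 6.47e-05).

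SNZ1 and SNO1, which act in pyridoxine synthesis, fell under C limitation by 1.19 and 0.86 on the log2 scale, with interactions of 1.25 ± 0.18 (adjusted p = 7.68e-05) and 0.86 ± 0.13 (adjusted p = 0.000176). PBI1, a gene of little known function, rose 3.85-fold under C limitation and had -1.66 ± 0.13 (adjusted p = 6.63e-08). DOG2, a sugar phosphate phosphatase, fell under N limitation alone and had -0.99 ± 0.088 (adjusted p = 2.43e-07).

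Growth-related lists are set beside the shares over all genes, 8.96% positive and 6.07% negative. Over all 5449 genes, 728 were positive and 444 negative without replicate 3 of the N-limited high group of snf1. Without replicate 1 of that group of Reference, 704 were positive and 480 negative. Of 83 ribosome biogenesis genes 8 (9.64%) were negative, among them UTP4, a small-subunit processome gene, with -0.71 ± 0.12 (adjusted p = 0.0003). The negative count was 18 without replicate 1 of the N-limited high group of Reference and 13 without replicate 3 of that of snf1. It was 33 without replicate 1 of both, where 738 of all 5449 genes were negative. Proteins of the large and small cytosolic ribosomal subunits had 3 negative of 70 and 1 positive and 1 negative of 52. The large-subunit count was 1 without replicate 3 of either C-limited group and 5 without replicate 3 of the N-limited high group, where the small-subunit negative count was also 5. The positive small-subunit gene was not called without any 1 of 19 arrays. Mitochondrial ribosomal proteins had 2 positive and 3 negative of 66, the positive count being 0 without replicate 3 of either C-limited group and 5 without replicate 3 of the N-limited high group. Amino acid synthesis had 4 positive and 6 negative of 60, the negative count ranging from 2 (without any 1 of 7 arrays) to 11 (without replicate 3 of the N-limited high group).

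The next lists, too, stand beside 8.96% positive and 6.07% negative over all genes. With those same arrays left out, the all-gene counts are the ones given for the growth-related lists. In sphingolipid synthesis 2 of 25 genes were positive and 3 negative, with 1 positive without any 1 of 14 arrays. In storage lipid metabolism 1 of 15 was positive, and 5 without replicate 1 of the N-limited high group of Reference. Autophagy had 6 positive (17.6%) and 1 negative (2.94%) of 34, the latter lost without either of 2 arrays. Purine synthesis had 3 positive and 2 negative of 22, with 4 negative without replicate 3 of the N-limited high group. In the cell cycle list 5 of 30 were positive and 3 negative, with the positive count 1 without any 1 of 3 arrays and up to 7, and the negative count 5 without replicate 3 of the N-limited high group. In glycolysis 1 of 25 genes was negative, and in sulfur metabolism 1 of 37. Propionate use had 1 negative of 4, and formate or one-carbon metabolism 2 negative of 15. Positive were 1 of 35 proteasome genes and 1 of 15 genes of sugar use other than glucose. The negative shares for propionate and one-carbon metabolism lay above 6.07%, on few genes. The other shares of these lists lay below those over all genes. Leaving out replicate 3 of the N-limited high group gave 3 negative genes in glycolysis, 5 in sulfur metabolism and 4 in one-carbon metabolism. Without replicate 1 of the N-limited high group of Reference 3 sulfur genes were positive. The sugar use count was 0 without replicate 1 of the C-limited low group and 3 without any 1 of 4 N-limited high arrays. The propionate count ranged from 0 to 2 with 1 array left out, and the proteasome gene was not called without any 1 of 20 arrays.

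The same interaction was computed in the Reference strain, from 12 arrays shared with no snf1 group, to ask which parts differ with the strain. The difference of the interactions, snf1 minus Reference, was called for 192 genes (3.52%), 113 higher (2.07%) and 79 lower (1.45%). Of the 488 genes positive in snf1, 75 (15.4%) were higher in this difference and 2 were lower, and the Reference interaction had the same sign for 411, with a median of 0.19 against 0.45 in snf1. Of the 331 negative genes, 71 (21.5%) were lower and 7 higher, and the sign was shared by 246, with medians of -0.14 and -0.47. For most called genes a difference between the strains was not shown. Leaving out replicate 1 of the N-limited high group of snf1 gave 313 calls in the difference, and leaving out that of both strains 615. Same-numbered N-limited high arrays of the strains deviated from their group means together (correlations over genes of 0.901, 0.784 and 0.868 for replicates 1, 2 and 3), so they were not independent, while the test takes them as such. With same-numbered arrays of the strains as pairs, 721 genes were called, among them all 192.

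Of 37 ER folding genes, 12 were lower in that difference, against 1.45% of all genes. ULI1 had an interaction of -0.02 in Reference, and the strain difference was -2.77 ± 0.12 (adjusted p = 3.3e-11). SIL1 and KAR2 were also more negative in snf1, by -1.61 and -1.06. For ergosterol synthesis 10 of 30 genes were lower, against the same 1.45%. Among them was ERG7 at -0.87 ± 0.11 (adjusted p = 4.47e-05), whose Reference interaction was 0.07.

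Several genes of iron uptake, the carnitine shuttle and the glyoxylate cycle were higher in the difference. FIT2 and FIT3 differed by 3.32 ± 0.47 (adjusted p = 0.000224) and 3.04 ± 0.57 (adjusted p = 0.003), with Reference interactions of -0.14 and 0.49. All 4 carnitine genes called in snf1 were called in the difference, CRC1 at 2.85 ± 0.15 (adjusted p = 2.62e-10). MLS1, ICL1 and EEB1 differed by 2.89, 2.16 and 2.39. POT1 had opposite interactions, 0.99 in snf1 and -1.06 ± 0.13 (adjusted p = 2.43e-05) in Reference.

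INO1 had no called interaction in snf1 but one of -3.54 ± 0.22 (adjusted p = 5.22e-09) in Reference, a difference of 3.84 ± 0.31 (adjusted p = 1.7e-07). Its response in Reference was -0.06 under C and -3.60 under N limitation (log2), against -4.11 and -3.81 in snf1. CHO1 and ITR1 went the same way with differences of 0.60 ± 0.14 (adjusted p = 0.015) and 0.91 ± 0.17 (adjusted p = 0.00274). HXT7 had much the same interaction in both strains, 1.43 and 1.47, with a 95% interval of the difference of -0.47 to 0.39. DIP5 was positive in both, larger in Reference at 2.49, and the difference was -0.93 ± 0.23 (adjusted p = 0.025). Its C-limited Reference arrays were all under the background level, so the Reference value and the difference are not exact sizes. PHO84 was negative in both with a difference of -2.17 ± 0.14 (adjusted p = 3.92e-09).

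Of 39 measured mating genes, 10 were higher in the strain difference, against 2.07% of all genes. In the snf1 interaction 5 (12.8%) were positive and 6 (15.4%) negative, against 8.96% and 6.07% of all genes. The positive count was 8 without replicate 3 of the N-limited high group, and the negative count 3 without replicate 3 of the C-limited low or replicate 1 of the N-limited low group. AGA1, the anchor subunit of a-agglutinin, had an interaction of -1.68 ± 0.10 (adjusted p = 4.46e-09) in Reference and of -0.35 ± 0.10 (adjusted p = 0.0219) in snf1, the latter not called without replicate 3 of the C-limited low, replicate 1 of the N-limited low or replicate 3 of the C-limited high group. PRM1, a cell fusion gene, had -1.07 in Reference and -0.43 ± 0.085 (adjusted p = 0.00185) in snf1. MF(ALPHA)1, the alpha-factor gene, was at 6.28, 6.21 and 6.08 under C limitation at the low level and at 5.65, 5.84 and 5.68 at the high level, and under N limitation at 8.87, 8.60 and 8.52 and at 6.62, 7.35 and 7.37. It fell under N limitation, and its interactions were -1.08 ± 0.29 (adjusted p = 0.0163) in snf1 and -3.16 in Reference. MFA2, an a-factor gene, was positive in snf1 at 0.72 ± 0.095 (adjusted p = 2.88e-05).

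**Figure D5:**
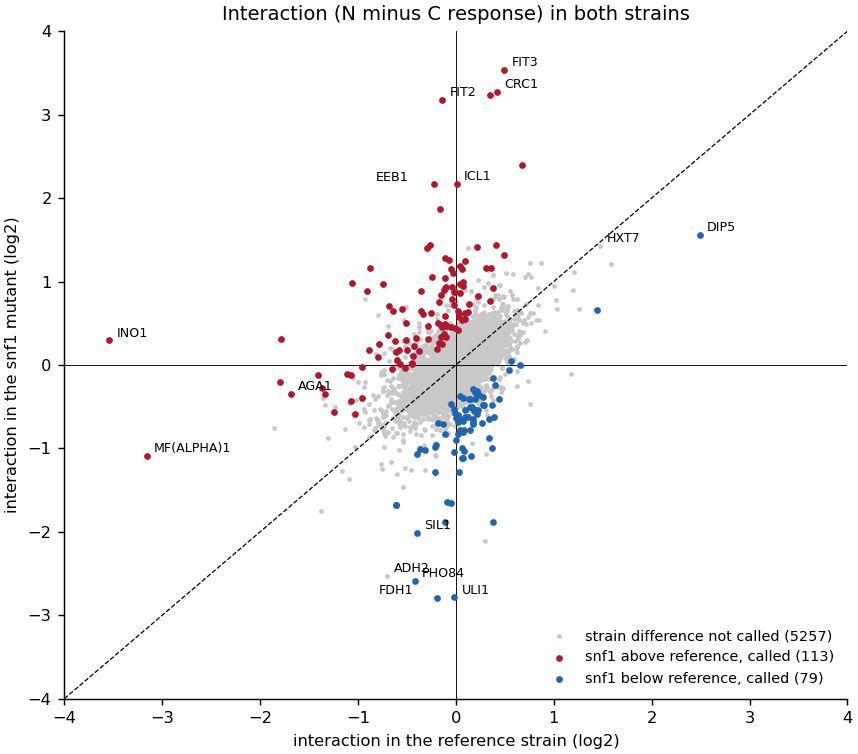
Interaction of limitation and inositol-choline (log2, N response minus C response) in Reference (x axis) and in the snf1 mutant (y axis) for 5449 genes, 1 point a gene, with genes called higher in the strain difference in red (113) and called lower in blue (79), and the line of equality dashed. INO1 lies far left at -3.54 and near 0 in snf1, ULI1 and FIT2 lie near 0 in Reference and far from 0 in snf1, and HXT7 lies by the dashed line.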

How the data were processed

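Each array (Affymetrix, yeast) holds total RNA of 1 sample. The deposited values are log2 expression values of 10928 probe sets. The submitters' processing notes name PLIER; its version and any scaling between arrays were not given in the sources used here. Their log scale was read from their range of 4.82 to 13.25, and base 2, which is stated nowhere, was assumed, so every fold rests on it. Column medians lay between 5.93 and 6.0, and no further scaling or pseudocount was applied. The number of arrays limits the precision.

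Through the platform's gene names and a RefSeq gene table, 5498 probe sets matched S. cerevisiae. The probe set of highest mean was kept for each of 47 genes with several, which left 5449 genes. The background level was the 95th percentile of 1746 S. pombe probe sets, 5.56 to 5.62 by array. Of the 819 called genes, 34 lay under it on every array of at least 1 snf1 group. No fold is given between groups that are both under it.

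One model with a mean for each of 8 groups was fitted to all 24 arrays by lmFit and eBayes of limma 3.58.1 (R 4.3.3), with 16 residual degrees of freedom and 18.77 in total after moderation, and p-values were adjusted by Benjamini-Hochberg over the 5449 genes. The script was tested on simulated data. The genes and the 39 gene lists were chosen with earlier results of these data known. Eligible were fixed genes, the 15 largest called interactions in each direction and up to 6 called members of a list in each direction. So were all members of short lists, the largest reversals of response and the 8 smallest adjusted p-values per direction of the strain difference. Not every eligible gene is described above: YHR140W, MRX3, SVS1 and YPS1, for example, were left out. Other settings tried were quantile and median scaling, a filter on dim genes, fewer arrays, a replicate block, other moderation, array weights, a 3′ minus 5′ covariate, all probe sets and leaving out arrays.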

Additional observations from a re-analysis of the deposited data

Results flagged for a closer look

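The interaction differed between the strains, by the test of the difference itself (limma, adjusted p under 0.05 over all 5449 genes), for the following genes named above; each value is the snf1 interaction minus the Reference interaction on the log2 scale. ER folding and membrane genes were lower in snf1, with ULI1 at -2.77, SIL1 at -1.61, KAR2 at -1.06, ERO1 at -1.77, MCD4 at -1.55, MPD1 at -1.25, FPR2 at -0.77 and YET2 at -2.26. So were sterol genes and CYB5, with ERG1 at -0.77, ERG11 at -0.85, ERG6 at -0.71, ERG7 at -0.87, ERG27 at -0.58, ERG25 at -0.62, ERG10 at -0.51 and CYB5 at -1.31. Iron uptake genes were higher, with FIT2 at 3.32, FIT3 at 3.04, SIT1 at 1.72 and FET3 at 2.04. The carnitine genes were higher, with CRC1 at 2.85, YAT1 at 2.03, YAT2 at 1.21 and CAT2 at 1.15. Glyoxylate and gluconeogenic genes were higher, with MLS1 at 2.89, ICL1 at 2.16, MDH2 at 1.70, IDP2 at 0.98 and SFC1 at 0.85. Among beta-oxidation and lipid genes the higher ones were POT1 at 2.05, ECI1 at 1.0, DCI1 at 0.69, MDH3 at 0.55, ELO1 at 1.03, EEB1 at 2.39, INO1 at 3.84, CHO1 at 0.60 and ITR1 at 0.91. Respiration, citric acid cycle, glycogen and stress genes were higher, with NDE2 at 1.15, SDH3 at 0.58, MDH1 at 0.41, IDH2 at 0.90, GPH1 at 1.02 and DDR2 at 1.29. Nitrogen and phosphate genes that were higher were GAP1 at 1.13, DUR3 at 0.80, MEP2 at 0.92, TAT1 at 0.40, GLT1 at 0.61 and PHO89 at 0.93. Cell wall, mating, pyridoxine and regulator genes that were higher were HPF1 at 1.15, FLO11 at 0.82, AGA1 at 1.33, PRM1 at 0.64, MF(ALPHA)1 at 2.07, MFA2 at 0.73, SNZ1 at 1.32, SNO1 at 0.82 and MIG3 at 0.47. Lower were also FDH1 at -2.60, STL1 at -1.01, ATF2 at -1.06, PHO84 at -2.17, SPL2 at -0.74, DIP5 at -0.93, HXT2 at -1.36, TSA2 at -0.75, TOS3 at -0.71, PBI1 at -1.61 and DOG2 at -1.05. The values of TAT1, SFC1, FDH1, DIP5 and SNO1 rest in part on groups under or at the background level, so their sizes are not exact.

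Of 3470 probe sets that the annotation table does not list, 41 (1.18%) were called in the snf1 interaction, 26 positive and 15 negative, with values between -1.91 and 1.91. These 41 have no gene name here.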

How the results depend on the processing

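Quantile or median scaling, leaving out dim genes, all probe sets and the trended, robust moderation kept the 4 counts of called genes within 1.5 times. Array weights, whose estimation did not converge, gave 2819 genes in the interaction, 3604 and 3540 in the N and C responses and 1717 in the strain difference. Without replicate 1 of both N-limited high groups there were 1787 in the interaction, 2907 in the C response and 615 in the strain difference, and with the 3′ minus 5′ covariate 1755, 2780 and 617. On only the arrays compared, the N response had 738 and the C response 3301 genes, since the spread is then that of the 6 arrays. The snf1 arrays without replicate 1 of the N-limited high group, a setting chosen after seeing the data, gave 2142 in the interaction. Leaving out 1 array at a time gave 605 to 1184 in the interaction, 1515 to 2579 in the N response, 906 to 1753 in the C response and 158 to 313 in the strain difference. The cause of these shifts was not tested.

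With the replicate number as a block in the 24-array fit 912 genes were called in the interaction. On only the arrays compared the replicate block gave 10 in the N response and 3253 in the C response. The numbers were not treated as pairing the arrays: the deviations of same-numbered arrays had correlations over 0.1 for all 3 numbers in 6 of 28 pairs of groups, and within snf1 between the 2 low groups alone (0.173, 0.461 and 0.392). The N-limited groups of the 2 strains were among the 6, at 0.165 to 0.405 (low) and 0.784 to 0.901 (high), and the C-limited ones were not. With a replicate block of same-numbered arrays of the strains, chosen after seeing the data, the strain difference was called for 721 genes, which include all 70 named genes called without it and 23 more. Nothing else in the labels ties them.

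Of the 110 named genes called in the interaction, 103 kept call and sign under the 35 settings run for single genes, and AGA1, CPT1, EPT1, ENB1, FET3, HMG2 and PSD2 lost the call under at least 1. HNM1, not called, changed sign to 0.32 (called) with the 3′ minus 5′ covariate and to 0.26 (called) on the snf1 arrays without the array of lowest 5′ signal. The main limits are 3 arrays per group, arrays of unequal 3′ minus 5′ signal in the N-limited high group, and 6 arrays whose description goes against their title. The spread is shared by all groups, while single arrays of the N-limited high group varied by 0.15 to 0.31 (SD over genes, log2) and those of the other snf1 groups by at most 0.076.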
